A study of Homo sapiens with 30 samples.

Results

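HOX cluster genes encode homeodomain transcription factors that give cells of the embryo their position along the head to tail axis. They lie in the HOXA, HOXB, HOXC and HOXD clusters and are numbered as paralogs 1 to 13. They were followed here across directed differentiation of H9, an established line of human embryonic stem cells, towards placode, the thickened head ectoderm from which the lens, the inner ear and the sensory ganglia of the head arise. Members were taken by name, as every gene whose symbol in the platform annotation is HOXA, HOXB, HOXC or HOXD followed by digits only. This gave 29 genes with 34 probes, of 18774 genes and 48701 probes in all. By cluster they were 1 HOXA gene (HOXA2), 10 HOXB genes, 9 HOXC genes and 9 HOXD genes, all protein coding, of 39 such genes in RefSeq. The other 10 HOXA genes carry no probe under their name in the annotation used and were not analysed here, so nothing below describes the HOXA cluster beyond HOXA2.

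Total RNA was hybridised to 30 Illumina expression bead arrays, 3 per group. The groups were day 1 and day 3 of differentiation, before the arms part, and then the PIP and NSB arms at days 5, 7, 9 and 11. The labels describe PIP as placode differentiation, state that the 3 arrays of each group are biological replicates and name no other agent, and every array carries the same H9 background with no genetic change named. From what is known of the study, and not from the labels, NSB is a neural induction that blocks BMP with Noggin and activin and Nodal signals with a receptor inhibitor, and PIP is the placode protocol, which starts alike. All arrays come from 1 cell line, and the arrays of days 3 and 5 each carry a pair of sample codes, which may stand for pooled RNA and which the labels do not explain. The deposited intensities are neither background-subtracted nor normalized, and each comes with a detection p-value, the chance of a signal that bright from a probe that measures nothing. Median intensity per array was 45.4 to 74.7 units, and 34.0% to 37.7% of all probes had a detection p under 0.05.

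In the embryo, low paralog numbers are used in the hindbrain and high numbers towards the tail, in the order of the genes along their cluster. Forebrain, midbrain and the foremost placodes are regions without HOX expression. HOX proteins bind DNA with TALE homeodomain partners of the PBX and MEIS families. Retinoic acid, WNT and FGF signals and the CDX factors activate the clusters, while Polycomb complexes hold them silent in pluripotent cells.

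Most HOX genes were not detected at any time in either arm. A gene was counted as detected in a group when at least 1 of its probes had a detection p under 0.05 on all 3 arrays of that group. By this rule 6 of 29 HOX genes, or 20.7%, were detected in at least 1 of the 10 groups, against 67.8% of all 18774 named genes. In all 10 groups, 2 HOX genes (6.9%) were detected, against 50.1% of all named genes. The 6 genes were HOXA2, HOXB1, HOXB6, HOXC6, HOXC8 and HOXC13. No difference between the HOX share and the share of all genes was tested, since the members are a list and not a sample of genes.

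By cluster, the detected genes were the 1 HOXA gene measured, 2 of 10 HOXB genes (HOXB1 and HOXB6), 3 of 9 HOXC genes (HOXC6, HOXC8 and HOXC13) and 0 of 9 HOXD genes. By paralog number, paralogs 1, 2, 8 and 13 had 1 detected gene each, of 2, 2, 3 and 3 measured. Both measured genes of paralog 6 were detected, and none of those of paralogs 3, 4, 5, 7, 9, 10, 11 and 12. The hindbrain numbers 1 to 4 thus held 2 detected genes of 9, the middle numbers 5 to 8 held 3 of 8, and the tail numbers 9 to 13 held 1 of 12. HOXC8 and HOXC6, which lie side by side, were each detected in 1 group but never in the same one. HOXC8 was detected at day 1 and HOXC6 in PIP at day 5. HOXB1 was detected and its neighbours HOXB2, HOXB3 and HOXB4 were not, and HOXC13 was detected at the far end of its cluster while HOXC12, HOXC11, HOXC10 and HOXC9 were not.

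The count per group lay between 2 and 5 genes. It was 5 of 29 at day 1 and 2 at day 3. It was 4 in PIP and 3 in NSB at day 5, 3 in each arm at day 7, 4 in PIP and 3 in NSB at day 9, and 3 in each arm at day 11. Over the same groups, 56.8% to 61.9% of all named genes were detected. The gene set behind the day 11 counts was the same in PIP and in NSB, namely HOXB1, HOXB6 and HOXC13.

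**Figure D1:**
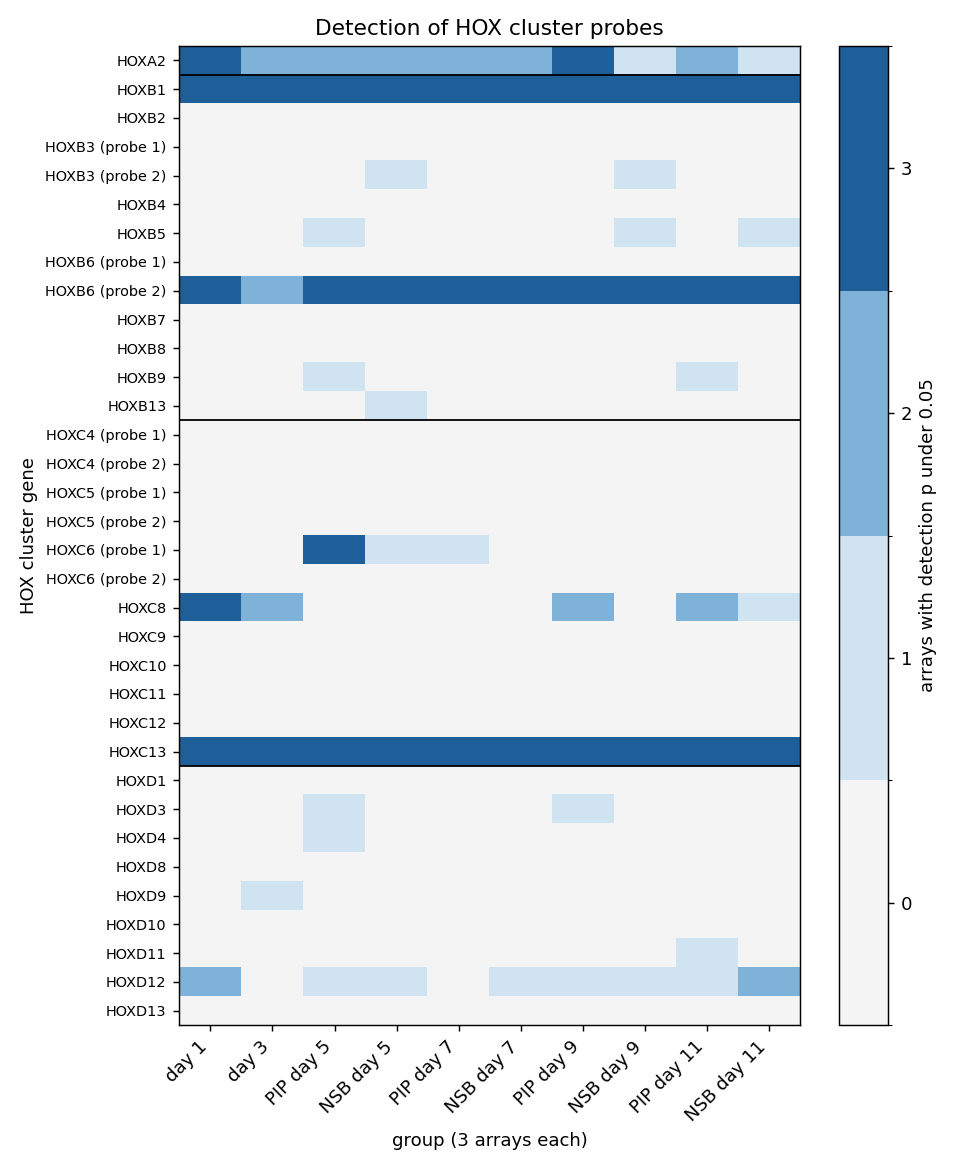
Number of arrays, of 3 per group, on which each of the 34 HOX probes had a detection p under 0.05. Rows are probes ordered by cluster and paralog number, with black lines between clusters, and columns are the 10 groups. HOXB1 and HOXC13 are dark throughout, 1 of the 2 HOXB6 probes nearly so, and 19 probes are blank in every group.

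The 34 probes fell apart into a few that were seen on nearly every array and many that were seen on few or none. The HOXB1 and HOXC13 probes were detected on 30 of 30 arrays and 1 HOXB6 probe on 29. HOXA2 followed with 20 arrays, HOXC8 and HOXD12 with 10 each and 1 HOXC6 probe with 5. A further 8 probes were detected on 1 to 3 arrays and 19 on none. In all, 14.4% of the 1020 HOX probe and array pairs were detected, against 55.9% of pairs of all named probes, and 6.24% without the 3 probes of HOXB1, HOXC13 and HOXB6.

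The 23 genes detected in no group had signals in the lower part of each array. Their 26 probes passed the 0.05 threshold in 23 of 780 probe and array pairs, or 2.95%, and a probe that measures nothing passes it in 5% of arrays by definition. Their median intensities were 45.9 to 72.6 units and the highest on any array was 91.9. On each array the named probes were ranked by normalized value, and the median rank of these 26 probes lay between the 4.0 and the 40 percentile. By cluster, the 8 such HOXB genes had 8 detected pairs of 270, the 6 HOXC genes 0 of 240, and the 9 HOXD genes 15 of 270, of which HOXD12 alone gave 10. For a gene with 1 probe, this says only that the probe was not above background.

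HOX genes with 2 probes showed that a call rests on the probe. HOXB6 was detected by 1 probe on 29 arrays, with intensities of 60.8 to 153 units, while its other probe was detected on 0 arrays, at no more than 74.4 units. HOXC6 was detected by 1 probe on 5 arrays and by the other on 0. HOXB3, HOXC4 and HOXC5, with 2 probes each, were detected in no group by either. The other detected genes, HOXC13, HOXB1, HOXA2 and HOXC8, have 1 probe each, so no second probe bears on their detection. Which transcripts each probe covers, and whether it also binds other RNAs, was not analysed here. HOXC4, HOXC5 and HOXC6 share 1 start (chr12, position 54016888, GRCh38.p14) in RefSeq, so their transcripts overlap. Antisense and neighbouring RNAs of the clusters with a named probe, namely HOTAIR, HOTTIP, HOXC13-AS, HOXC-AS1, EVX1, EVX2 and EVX1-AS, had 8 probes, each detected on 0 of 30 arrays.

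HOXC13 gave the brightest HOX signal. It is the HOX gene of hair and nail, and lies at chr12:53938831-53946544 (GRCh38.p14). Its intensity ran from 111 to 240 units over the 30 arrays with a median of 158, and its rank from the 59.9th to the 68.6th percentile of named probes, so even this gene was no more than moderately bright. Its detection p was at most 0.00291.

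HOXB1, the paralog used in the fourth rhombomere of the hindbrain, came next in steadiness. It lies at chr17:48528526-48531011 and had intensities of 86.6 to 146 units, ranks between the 54.6th and 61.8th percentile and a detection p of at most 0.00946. HOXB6, a trunk gene at chr17:48595751-48604986, had ranks between the 39.9th and 60.4th percentile. HOXA2, which patterns the second pharyngeal arch and hindbrain (chr7:27100354-27102683), lay between the 38th and 51.7th, and HOXC8, which patterns the thorax in the mouse (chr12:54008985-54012769), between the 32.1st and 54.2nd. The last of these genes sit so close to the detection limit that 1 array decides whether a group counts as detected.

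A stricter threshold left 3 genes. With a detection p under 0.01 on all 3 arrays of a group, HOXB1 and HOXC13 were detected in all 10 groups, HOXB6 in NSB at day 9, and the other 3 genes in none. Asking for at least 2 of 3 arrays added HOXD12, at day 1 and in NSB at day 11, to the 6. Asking for at least 3 of the 30 arrays in whatever groups gave 8 genes, which adds HOXB5 and HOXD12. By this last rule 27.6% of HOX genes were detected, against 71.8% of all named genes. The share of all genes was not analysed for the stricter threshold or for the rule of 2 of 3 arrays.

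The stretch before the HOXB1 start is shown since HOXB1 was the hindbrain gene detected on every array and since HOX and PBX proteins are known to bind such stretches together, with the letters TGATNNAT as their joint site. RefSeq start-site windows (GRCh38.p14) were given for 12 of the 29 genes, and the 250 bases before each start were searched on both strands. TGATNNAT was found in 3 of the 12, those of HOXB1, HOXA2 and HOXD11, against 6.47% of 35116 windows of all genes. The match of HOXB1, TGATGGAT, was in 1 of the 12 and in 0.501% of all windows. HOXA2 is shown as the other detected gene with a match and HOXD11 as an undetected one, with the match in capitals.
HOXB1, chr17:48531012-48531261, minus strand: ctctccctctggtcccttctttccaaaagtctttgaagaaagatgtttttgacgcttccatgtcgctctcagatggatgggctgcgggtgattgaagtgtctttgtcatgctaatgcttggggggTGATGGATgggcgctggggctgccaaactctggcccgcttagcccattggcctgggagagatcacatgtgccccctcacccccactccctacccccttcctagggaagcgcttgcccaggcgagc
HOXA2, chr7:27102684-27102933, minus strand: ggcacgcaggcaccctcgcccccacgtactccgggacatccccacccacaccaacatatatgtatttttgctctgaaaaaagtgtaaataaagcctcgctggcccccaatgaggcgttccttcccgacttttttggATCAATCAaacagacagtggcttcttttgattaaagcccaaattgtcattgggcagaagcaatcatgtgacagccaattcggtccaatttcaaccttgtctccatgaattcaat
HOXD11, chr2:176107030-176107279, plus strand: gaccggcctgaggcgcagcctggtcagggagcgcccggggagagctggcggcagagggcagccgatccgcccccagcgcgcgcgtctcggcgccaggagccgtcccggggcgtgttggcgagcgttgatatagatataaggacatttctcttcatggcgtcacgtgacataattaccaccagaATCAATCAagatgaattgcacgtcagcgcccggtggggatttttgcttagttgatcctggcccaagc
A match is a description of letters, with no test made. It was present in the windows named for HOXB1 and HOXA2 and in 1 of the other 10. The windows of HOXC4 and HOXC5 are the same stretch, so the 12 are not all distinct. That stretch also lies before the shared start of HOXC6, a detected gene, and held 0 matches. The letters AGGTCA, known as a binding site of nuclear receptors, were found in 0 of the 12 windows, against 12.1% of all windows, which says only that these letters are not in these 250 bases. The windows held a median of 18.5 CpG pairs, against 11 in all windows, from 4 before HOXD4 to 31 before HOXD1.

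For the comparisons, intensities were corrected for background, raised by 16, made alike in distribution by quantile normalization and converted to log2, and 8 of the 29 HOX genes passed the filter of a detection p under 0.05 on at least 3 arrays. These were the 6 detected genes with HOXB5 and HOXD12, and they passed in part through the groups in which they were high. Differences are given as log2 values ± the standard error of a limma fit over all 30 arrays and 13488 genes, with p-values adjusted by the Benjamini-Hochberg method over all genes. The offset makes differences of dim probes small, and named probes below the filter had group medians of 4.71, which is the floor of this scale.

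**Figure D2:**
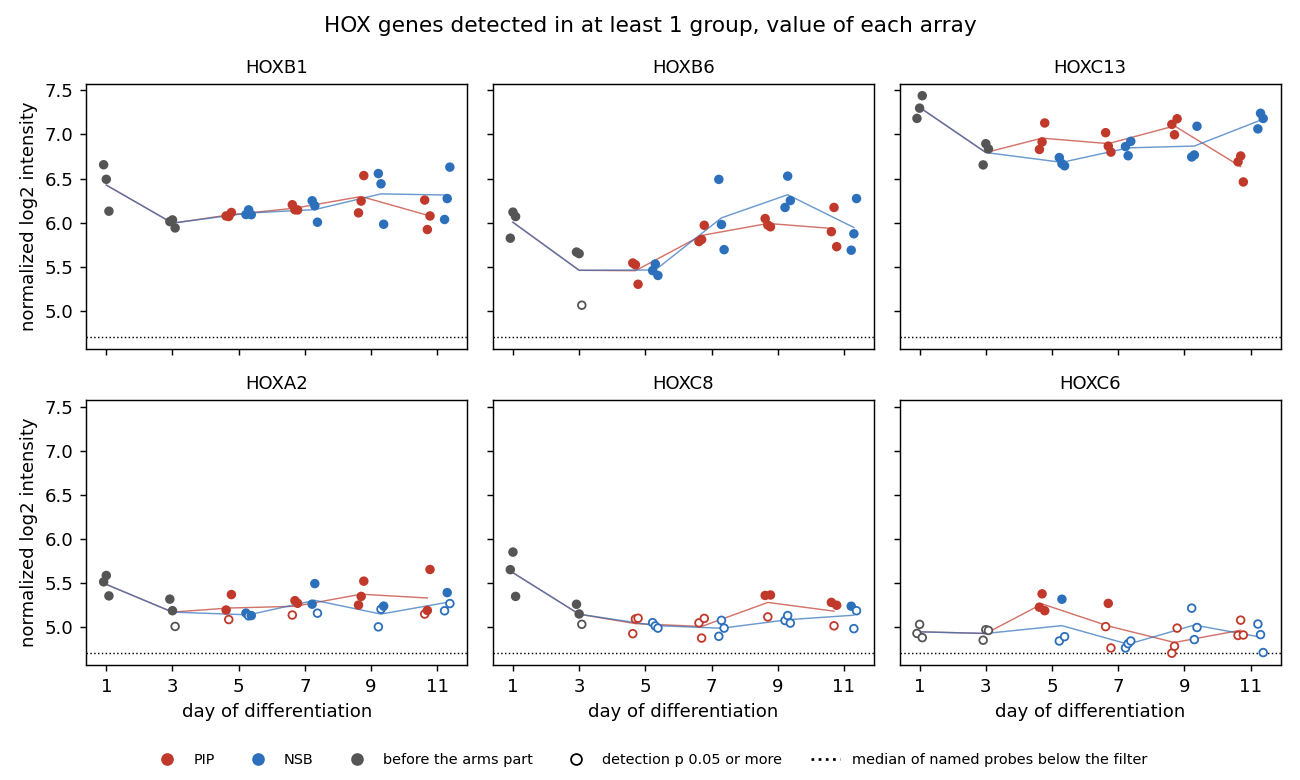
Normalized log2 intensity of each array for the 6 detected HOX genes, by day, with PIP left of NSB from day 5 on. Filled points had a detection p under 0.05, lines join group means and the dotted line is the median of named probes below the filter. HOXC13 and HOXB1 stay well above the floor, while HOXA2, HOXC8 and HOXC6 lie near it.

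Over all 10 groups, HOXB6, HOXC13 and HOXC8 changed. The moderated F test in limma over the 10 groups called these 3 of the 8, or 37.5% (adjusted p = 1.56e-04, 1.05e-05 and 1.23e-04), while 90.4% of all genes tested were called. Between the lowest and the highest group mean lay 0.86 for HOXB6, 0.67 for HOXC13 and 0.63 for HOXC8 on the log2 scale. Over the 8 genes the median of this range was 0.44, against 0.90 over all genes. HOXA2, HOXB1, HOXB5, HOXC6 and HOXD12 were not called.

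At day 3 against day 1, 5 of the 8 HOX genes fell and none rose. Of all genes tested, 54.4% were called over this step, 25.4% as lower and 29.0% as higher, against 62.5% of the 8 HOX genes, all lower. The 5 that fell were the 5 HOX genes detected on all 3 day 1 arrays, while HOXB5 and HOXC6 were detected on 0 of them, and the difference between the shares was not tested. The 5 were HOXC13, HOXB6, HOXC8, HOXB1 and HOXA2, and all 8 differences were negative, with a median of -0.41 against 0.01 over all genes. The 26 HOX probes not in the test had a median of -0.024, with 15 of them lower at day 3. Among the 8192 named probes below the filter the median was -0.009, with 4470 lower.

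HOXC13 had log2 values of 6.66, 6.90 and 6.84 at day 3, against 7.18, 7.30 and 7.44 at day 1. The groups did not overlap, and HOXC13 fell by 0.51 ± 0.10, or 1.43-fold (adjusted p = 1.18e-04). Its rank among named probes moved the same way, with 61.4, 63.4 and 63.0 percentiles at day 3 and 66.3, 67.4 and 68.6 at day 1. HOXC8 had 5.26, 5.15 and 5.03 at day 3, against 5.65, 5.85 and 5.35 at day 1, and fell by 0.47 ± 0.11 (adjusted p = 4.43e-04). It was detected on 2 of 3 arrays at day 3 and on 3 at day 1, the only group with all 3.

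HOXB6 had 5.67, 5.65 and 5.07 at day 3, against 5.83, 6.12 and 6.07 at day 1, and the third day 3 array, at 5.07, was the only 1 of 30 below the detection threshold. HOXB6 fell by 0.54 ± 0.17 (adjusted p = 0.00749). HOXB1 had 6.01, 6.03 and 5.94 at day 3, against 6.66, 6.49 and 6.13 at day 1, and fell by 0.43 ± 0.14 (adjusted p = 0.0114). For both genes the groups did not overlap, and in HOXB1 the third day 1 array lay nearest to the day 3 values. HOXA2 was detected on 2 arrays at day 3 and 3 at day 1, and fell by 0.31 ± 0.12 (adjusted p = 0.0247). This call was lost without the first or the second day 1 array and without the third day 3 array, at -0.30, -0.26 and -0.23, and that of HOXB1 without the first day 1 array, at -0.32.

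These falls depended on the scaling of the arrays. With each array scaled to its median over all probes instead, HOXC8 alone was called, and the differences were -0.18 for HOXC13, -0.33 for HOXB6, -0.14 for HOXB1 and -0.20 for HOXA2, all still negative, in a scaling that moved the median of all genes to 0.20. Without the third day 3 array, 3 of the 5 calls were made. Median intensity per array was 52.6 to 53 at day 3 and 60.4 to 67.8 at day 1, and the part of this in the result was not tested.

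**Figure D3:**
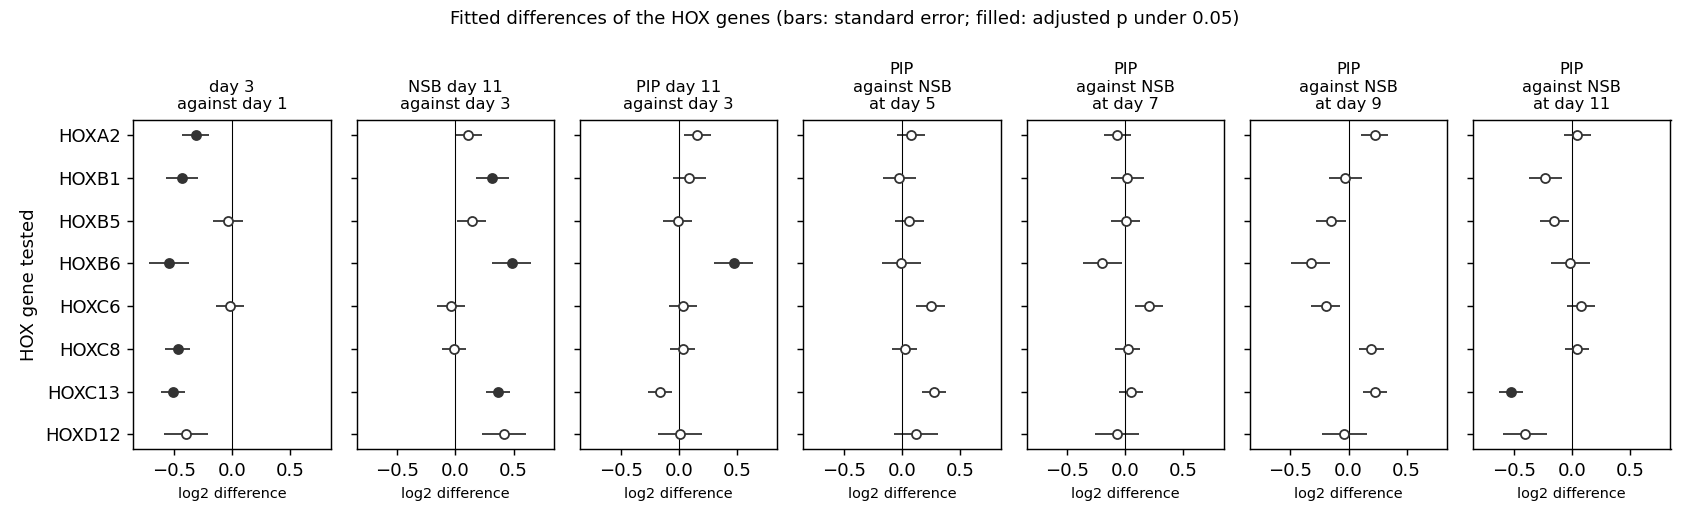
Log2 differences of the 8 HOX genes tested in 7 comparisons, as points with bars of 1 standard error, filled where the adjusted p was under 0.05. The left panel has 5 filled points left of 0, the PIP against NSB panels of days 5, 7 and 9 have none, and HOXC13 is filled at day 11.

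By day 11 the PIP arm had 1 HOX gene called above its day 3 level and the NSB arm 3, by small amounts. Both comparisons share the day 3 arrays and so are given side by side only. In PIP, HOXB6 rose by 0.47 ± 0.17 (adjusted p = 0.0161), with 5.90, 6.17 and 5.73 at day 11. In NSB it rose by 0.49 ± 0.17 (adjusted p = 0.0129), with 5.69, 5.88 and 6.27. The shares of all genes called were 62.4% in PIP (30.4% higher, 32% lower) and 66.0% in NSB (31.3% higher, 34.7% lower). The HOX calls, all higher, were 12.5% of the 8 genes in PIP and 37.5% in NSB.

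HOXC13 stood at 0.16 ± 0.10 below its day 3 level in PIP (log2 difference -0.16, adjusted p = 0.182) and rose by 0.37 ± 0.10 in NSB (adjusted p = 0.00261). HOXB1 rose by 0.32 ± 0.14 in NSB at the edge of the test (adjusted p = 0.0498), and this call was lost in 7 of 10 alternative analyses. With 1 array left out it was lost in 5 of 6 fits, and the differences of the 6 ran from 0.16 to 0.46. The mean unnormalised HOXB1 intensity was 99.26 units in NSB at day 11 and 98.55 at day 3. With arrays scaled to the median of all probes, the NSB differences turned to -0.15 for HOXC13 and -0.04 for HOXB1. That scaling called 0 HOX genes in NSB and moved the median of all genes to -0.43. Scaling to the probes detected on all arrays called 8 HOX genes in NSB, all higher. It called 10211 of all 13488 genes in NSB and moved their median to 0.20. HOXB6 was not called in either arm without the third day 3 array, nor in PIP without the second, or in NSB without the third, day 11 array. Neither HOXA2, HOXC8 nor HOXC6 was called in either arm, with intervals of 95% confidence that reached at most 0.40 in size. By the rule of all 3 arrays, HOXB6 was the gene that day 11 added to the day 3 detections in both arms, and it passed on 3 arrays in place of 2.

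The third NSB array of day 11 carried the highest normalized NSB day 11 value of HOXB1 (6.63), HOXB5 (5.44), HOXB6 (6.27) and HOXD12 (6.09). It was also the NSB day 11 array with the lowest median intensity, at 53.3 units. Before normalization it had the lowest HOXB1 intensity of that group, at 89.7 units against 102 and 106. The same held for HOXB6, at 80.3 units against 89.8 and 91.4. For HOXB5 and HOXD12 its intensities were in the middle, at 64.5 and 75.75 units. Without this array, 1 HOX gene was called in NSB at day 11 against day 3, in place of 3.

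Between PIP and NSB, 0 of the 8 HOX genes were called at days 5, 7 and 9, and 1, HOXC13, at day 11. The shares of all genes called by limma were 11.5%, 12.4%, 20.8% and 25.5% at days 5, 7, 9 and 11. Higher in PIP were 5.93%, 6.51%, 10.3% and 14.2%, and lower 5.59%, 5.93%, 10.5% and 11.4%. For the HOX genes, the counts at an unadjusted p under 0.05 were 1, 0, 1 and 2. At day 5 HOXC6 was the gene that differed in detection, on 3 of 3 arrays in PIP and 1 of 3 in NSB. Its values were 5.23, 5.38 and 5.19 in PIP and 4.85, 5.32 and 4.89 in NSB, which overlap, and its difference was 0.25 ± 0.12 (adjusted p = 0.203). At day 9 HOXA2 was detected on 3 arrays in PIP and 1 in NSB, with a difference of 0.23 ± 0.12 (adjusted p = 0.189). Neither detection count thus marks a difference between the arms that passed the test.

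At day 11 HOXC13 was lower in PIP, with 6.69, 6.76 and 6.46, against 7.06, 7.24 and 7.18 in NSB. The arms did not overlap, and the difference was -0.53 ± 0.10 (1.44-fold, adjusted p = 2.46e-04), where 11.4% of all genes were called lower. Within the array the ranks were 62.0, 62.5 and 59.9 percentiles in PIP, against 65.4, 66.8 and 66.4 in NSB. The unnormalised intensities, however, overlapped, at 151, 155 and 121 units in PIP and 159, 161 and 111 in NSB, while the array medians were 62.4 to 64.4 in PIP and 53.3 to 62.4 in NSB. Scaled to the array median over all probes, the difference was -0.16 (adjusted p = 0.402), in a scaling that moved the median of all genes to 0.28.

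At day 5 the sign of the HOXC13 difference was the opposite. HOXC13 had 6.83, 6.92 and 7.13 in PIP at day 5 and 6.74, 6.67 and 6.65 in NSB, a difference of 0.27 ± 0.10 that did not pass adjustment (adjusted p = 0.0814). The arm difference changed between day 5 and day 11 by -0.80 ± 0.15 (adjusted p = 1.69e-04), in a test that called 19.9% of all genes, 11.5% as higher and 8.47% as lower. At day 9 the difference was 0.23 ± 0.10 (adjusted p = 0.122), and at day 7 it was 0.05 ± 0.10 (adjusted p = 0.826). Group means of HOXC13 in PIP at days 5, 7, 9 and 11 were 6.96, 6.90, 7.10 and 6.64, and in NSB 6.68, 6.85, 6.87 and 7.16, so the PIP mean lay above the NSB mean at days 5, 7 and 9 and below it at day 11, where alone the difference passed the test.

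For the remaining 7 HOX genes tested, the difference of PIP from NSB at day 11 was not called. The interval of 95% confidence ran from -0.36 to 0.33 for HOXB6, from -0.19 to 0.29 for HOXA2, from -0.17 to 0.26 for HOXC8 and from -0.17 to 0.33 for HOXC6. It ran from -0.52 to 0.06 for HOXB1, from -0.41 to 0.11 for HOXB5 and from -0.79 to -0.01 for HOXD12, whose difference of -0.40 ± 0.19 did not pass adjustment (adjusted p = 0.124). HOXD12, whose normalized value on the third NSB array was the highest of the 30, had 5.29 and 4.99 on the other NSB arrays and 5.05, 5.20 and 4.91 in PIP.

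Cofactors of HOX proteins were detected and rose with time in both arms. The lists below were chosen with earlier results of these data known, and are described by counts. All 8 measured TALE cofactors were detected in at least 1 group, 5 of them at day 1 and all 8 in both arms at day 11. MEIS2, a partner of HOX and PBX proteins, was 20.9-fold (log2 4.39 ± 0.08) higher in PIP at day 11 than at day 3 and 10.6-fold (log2 3.41 ± 0.08) higher in NSB. MEIS1 was 12.1-fold (log2 3.60 ± 0.09) higher in PIP and 7.90-fold (log2 2.98 ± 0.09) in NSB, against day 3 arrays of which 1 of 3 had it above background. Of the 8 cofactors, 7 rose and 0 fell in each arm (median 0.85 in PIP and 0.95 in NSB, against -0.01 over all genes in each), where 30.4% of all genes were called higher in PIP and 31.3% in NSB. At day 11, 5 of the 8 were higher in PIP and 1 was lower, against 14.2% and 11.4% of all genes, with MEIS2 1.98-fold higher (log2 0.98 ± 0.08) and MEIS3 lower (log2 -0.66 ± 0.12).

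Of 14 posterior axis genes and activators of the clusters with a named probe, 6 were detected in at least 1 group, against 67.8% of all genes. GDF11 and FGF8 were detected in 10 groups, WNT3A and GBX2 in 8, CDX4 in 4 and TBXT in 3. CDX1 and CDX2, caudal factors that activate HOX genes, TBX6 and MSGN1 of the paraxial mesoderm, WNT8A, EVX1, EVX2 and MNX1 were detected in 0 of 10 groups. CDX4 was detected on all 3 arrays at days 1 and 3 and in both arms at day 5, at log2 means of 6.0, 6.06, 6.11 in PIP and 5.98 in NSB, and in neither arm later. At day 11 it was at least 1.83-fold lower in PIP and at least 1.75-fold lower in NSB than at day 3 (adjusted p = 3.69e-11 and 1.90e-11). FGF8, which is used in the head as well as in the tail bud, was 3.56-fold higher at day 11 than at day 3 in PIP and 13.9-fold higher in NSB. Of the 5 spinal cord and posterior neural markers, OLIG2, NKX6-1, LHX3, MNX1 and CDX2, 0 were detected in any group.

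Retinoic acid pathway genes were detected broadly and differed between the arms, with 15 of 16 detected in at least 1 group. At day 11, 9 of 15 tested were higher in PIP and 1 was lower (median 0.39, against 0.00 over all genes), against 14.2% and 11.4% of all genes. ALDH1A1, a synthesising enzyme, was 16.2-fold higher (log2 4.02 ± 0.17) and was above background on 3 arrays in PIP and 2 of 3 in NSB. Also higher, RARB, a receptor that retinoic acid itself induces, was 5.33-fold higher (log2 2.41 ± 0.08), and ALDH1A3, another such enzyme, 7.95-fold higher (log2 2.99 ± 0.11). RARB averaged 7.52 in PIP and 5.11 in NSB at day 11, and was above background on 3 arrays in PIP and 1 of 3 in NSB. CYP26A1, an enzyme that breaks retinoic acid down, was also brighter in PIP, at a log2 mean of 11.3 against 9.63 in NSB. The amount of retinoic acid was not measured. In the same groups HOXA2 averaged 5.33 and 5.28, and HOXB1 6.09 and 6.31. The genes of HOX paralogs 3, 4 and 5, of which 7 were measured, were detected in neither.

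Head factors were detected more often after day 3. Of 13 forebrain and midbrain factors with a named probe, 3 were detected at day 1, 3 at day 3, 11 in PIP and 9 in NSB at day 11. LHX2 was at least 139-fold higher in PIP at day 11 than at day 3 and at least 212-fold higher in NSB, and PAX6 at least 36.2-fold and 35.4-fold higher. Of 6 hindbrain factors, IRX3, EPHA4 and FGF3 were detected in at least 1 group and PHOX2A, NKX6-1 and NKX6-2 in none. IRX3 and EPHA4 are also used outside the hindbrain. The chromatin regulators of the clusters, Polycomb and Trithorax genes among them, were detected for 18 of 19. At day 11, 1 of the 18 tested was higher in PIP than in NSB and 4 were lower, against 14.2% and 11.4% of all genes. EZH2, the Polycomb methyltransferase, was 0.52 ± 0.09 lower in PIP than in NSB at day 11 (adjusted p = 4.76e-05). Its log2 means were 8.26 in PIP and 8.78 in NSB, against 8.34 at day 3.

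**Figure D4:**
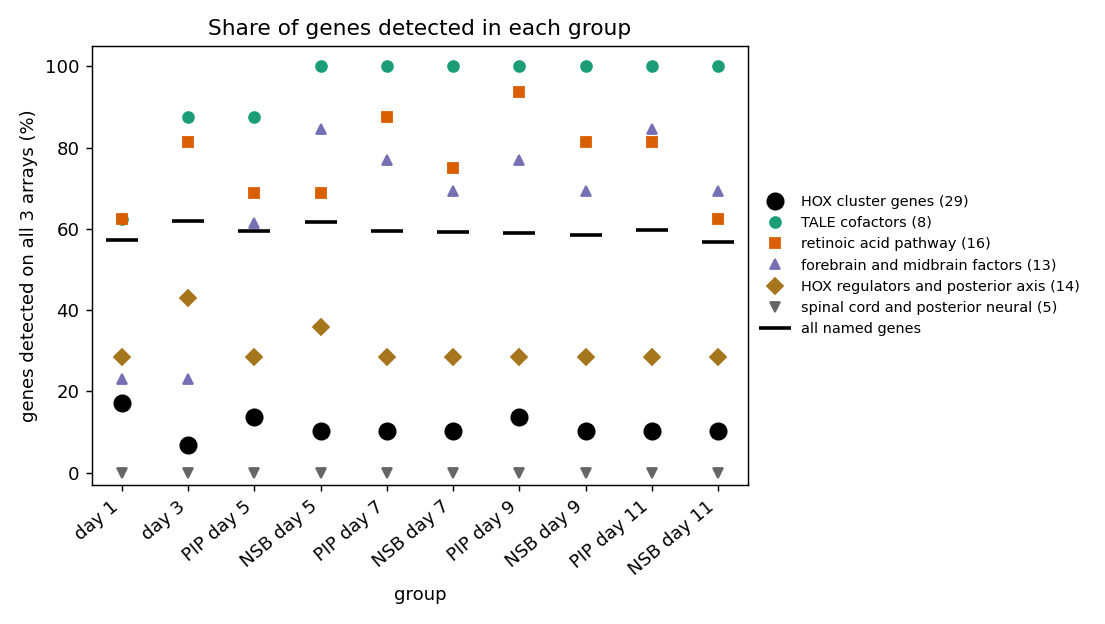
Share of the genes of each list detected on all 3 arrays of a group, with the number of genes in brackets, for each of the 10 groups. HOX cluster genes lie between 6.9% and 17.2% in every group, below all named genes (short bars), while TALE cofactors reach 100% and spinal cord markers stay at 0%.

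Markers of other cell types moved between the arms at day 11 beside the HOXC13 difference. Trophoblast and amnion markers were detected for 6 of 6 genes in PIP and 0 of 6 in NSB, with a summed normalized level of 1962 to 2445 per array in PIP and 167 to 227 in NSB. CGA and ISL1 were the brightest of these in PIP, at log2 means of 9.87 and 9.61, and weigh most in the sum. KRT7 lay near the floor, at 5.49 in PIP and 5.09 in NSB. In NSB, CGA was above background on 2 of 3 arrays and KRT7 on 1. HAND1 is counted in this list and again among the mesoderm markers below. Whether trophoblast or amnion cells were present, or whether these markers are particular to such cells, was not tested. Non-neural ectoderm markers summed to 4672 to 5406 in PIP and 573 to 742 in NSB, and anterior neural markers to 7388 to 8453 in PIP and 10768 to 12278 in NSB. LHX2 was the brightest anterior neural marker, at log2 means of 12.25 in PIP and 12.86 in NSB, while PAX6 averaged 10.31 and 10.28. The other lists gave, in PIP and in NSB at day 11, 2 and 2 of 3 pluripotent markers detected, 4 and 3 of 6 neural crest, 6 and 3 of 11 mesoderm, 1 and 1 of 6 endothelial and 0 and 0 of 5 endoderm markers. Beside the day 3 falls, NANOG and POU5F1, factors of the pluripotent state, had log2 means of 8.01 and 11.3 at day 3 and 11.2 and 12.3 at day 1. LIN28A, the third marker of that list, went the other way, with 13.23 at day 3 and 12.96 at day 1. The 3 pluripotent markers were all detected in both groups and summed to 12053 to 12710 at day 3 and 14943 to 15822 at day 1. The 6 neural crest markers summed to 803 to 960 at day 3 and 585 to 781 at day 1. The brightest of them, ERBB3, weighs most in this sum, with log2 means of 9.32 at day 3 and 8.59 at day 1. FOXD3 had log2 means of 5.15 at day 3 and 7.05 at day 1. Of the 6, 2 were called higher at day 3 and 1 lower, against 29.0% and 25.4% of all genes. AFP had a log2 mean of 6.93 at day 3 and 10.7 at day 1, while the other endoderm markers SOX17, FOXA2, GATA4 and GATA6 were detected in 0 of 10 groups. Their part in the HOX values was not tested, and in bulk RNA fewer cells that express a gene and less RNA per cell cannot be told apart.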

How the data were processed

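For every array, the deposited unnormalised table gives probe intensity (the mean over beads), detection p-value, bead count and bead standard error, per the file headers. The authors made it in GenomeStudio, per the submitters' processing notes, with no version given. The deposited series table holds processed intensity values, used as an alternative only. Probes were named through the platform annotation: 23687 of 48701 have 1 gene name, 35 have several and 24979 none, and 23651 matched RefSeq by Entrez identifier.

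Intensities were normalized with neqc (normexp from detection p-values, offset 16, quantile, log2) in limma 3.58.1 (R 4.3.3). Probes with detection p under 0.05 on at least 3 arrays were kept (21500, of which 15495 with 1 gene name), with 1 probe per gene, the one with the highest mean, giving 13488 genes. A mean for each of 10 groups was fitted (20 residual and 6.95 prior degrees of freedom), with 2-sided moderated tests and Benjamini-Hochberg adjustment within each comparison, called at an adjusted p under 0.05. The fit was tested on simulated data. No 2 arrays held identical values, and the number of arrays limits the precision.

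Named genes were all HOX members, with array values for those detected, and for each companion list at most 4 genes, those with the largest difference among those called, beside members named with their detection. Members and lists were chosen with earlier results of these data known. Folds written "at least" set each array of a dim group to the higher of its own value and the lowest normalized value of a probe detected there. Alternatives were other scalings, background corrections, offsets, filters and probe rules, a replicate block, single comparisons and leaving out each array. Promoter sequences are RefSeq's (GRCh38.p14).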

Additional observations from a re-analysis of the deposited data

Results flagged for a closer look

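The HOXC13 difference of PIP from NSB was not the same at day 11 as at day 5. It changed by -0.80 ± 0.15 on the log2 scale (limma, adjusted p = 1.69e-04), from fitted differences of -0.53 at day 11 and 0.27 at day 5. With any 1 of the 12 arrays of these groups left out, the change lay between -0.86 and -0.71. Scaled to the array median over all probes it was -0.30 (adjusted p = 0.256), and its cause was not tested.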

How the results depend on the processing

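Scaling moved the HOX calls most, and its cause was not tested. With arrays scaled to the median of all probes, the number of HOX genes called was 1 (in place of 5) at day 3 against day 1, 0 (in place of 1) for PIP against NSB at day 11, 0 (in place of 3) in NSB at day 11 against day 3, and 0 (in place of 1) for the change from day 5 to day 11. HOXB1 and HOXC13 in NSB at day 11 against day 3 turned to -0.036 and -0.153. This scaling moved the median of all genes by 0.20, 0.28, -0.43 and 0.45 in these comparisons, and called 5309 genes higher and 319 lower in PIP at day 11, against 1911 and 1531. At day 7 it called 885 higher and 196 lower, 1081 in all, and a fit of the day 7 arrays alone called 782, against 1678. The change from day 5 to day 11 then had 6248 calls in place of 2690.

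Arrays were also scaled to the median of the probes detected on all arrays. The HOX counts were then 8 in NSB and 2 in PIP at day 11 against day 3, all higher. Between the arms they were 1 higher at day 5, 1 higher at day 9 and 3 lower at day 11. For the change 4 were called lower, and the F test called 8. Of all 13488 genes, this scaling called 10211 in NSB and 8678 in PIP at day 11 against day 3. It called 1462 at day 5, 2689 at day 9, 4153 at day 11, 3469 for the change and 13014 by the F test. The median of all genes moved to 0.20 in NSB and 0.10 in PIP at day 11 against day 3. Without the filter, 2 HOX genes were called in PIP at day 11 against day 3 and 6 by the F test. Of all 18774 genes, 8616 and 12689 were called there. Keeping probes with detection p under 0.01 left 3 calls at day 3 against day 1, and a detection p under 0.01 left 3 genes detected.

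Leaving out single arrays gave 3 to 5 calls at day 3 against day 1 (3 without the third day 3 array), 1 to 4 in NSB at day 11 against day 3 (1 without the third day 3 or the third NSB array), 0 to 1 in PIP (0 without the third day 3 or the second PIP array), 0 to 1 at day 5 (1 without the second NSB array), 0 at day 7, 0 to 1 at day 9 (1 without the third NSB array), 1 to 2 at day 11 and for the change (2 without the second NSB day 11 array), 3 to 5 for the F test (5 without the first NSB day 11 array) and 6 to 7 genes detected. Over all genes, the 1554 calls between the arms at day 5 became 875 without the first PIP array and 978 without the third NSB array.

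Replicate numbers did not pair the arrays, since residuals of same-numbered arrays correlated at -0.009 on average and others at 0.005. With the replicate number as a block, HOXB1 in NSB at day 11 against day 3 had an adjusted p of 0.0572, and the F test called 4 HOX genes. In the comparisons of 2 groups the block changed no other HOX call. The F test without the day 9 arrays, added after seeing the data, called 3. The slide as a block was not run, since the columns name no slide. The other alternatives kept every HOX count within 1.5 times the reported one. The dim HOX probes lie near background, so small differences among them are beyond these arrays.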
